A study of Mus musculus with 4 samples.

Results

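The SLAM family is a set of cell surface receptors of blood cells that bind each other across cell contacts, most of them each to its own kind. The tails of several of them carry a tyrosine motif, the immunoreceptor tyrosine-based switch motif, and the small adaptor SAP binds such motifs through its SH2 domain to bring in the kinase Fyn. Loss of SAP in humans causes X-linked lymphoproliferative disease, and in mice SAP is needed for natural killer T cells and for help from follicular T cells to B cells. The genes described here are the 7 receptor genes Slamf1 (CD150), Slamf6 (Ly108), Slamf7 (CRACC), Ly9 (CD229), Cd84, Cd48 and Cd2 and the SAP gene Sh2d1a. They were chosen by symbol and not by a cut on level, but with earlier results of these data known. All 8 of 8 were found among the 50600 annotated gene identifiers.

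RNA-seq was measured in 4 libraries of regulatory T cells, the CD4 T cells defined by the transcription factor Foxp3 that restrain immune responses. All were primary cells of strain C57BL/6NJ mice in 1 group with no second condition, labelled biological replicates 1 to 4. The labels link a differentiation protocol for CD4 T cells, and names in the file headers carry the words activated and 72 h, so these cells need not stand for regulatory T cells taken directly from tissue. All 4 share a donor identifier, sex was not collected and age is unknown. The labels do not say which cultures came from separate animals, so p-values measure only the spread between these libraries. Total counts on genes lay between 51460018 and 121477975, a ratio of 2.36. Each pair of libraries differed beyond sampling noise, with a chi-square per degree of freedom of 18.3 or more. All 6 regulatory T cell markers and all 8 T cell markers reached 1 TPM in every library, against 48.9% of protein-coding genes. Foxp3 was at 448 ± 27.8 TPM (SD, n = 4). Xist, transcribed from the inactive X of female cells, was at 173, 199, 0.592 and 0.758 TPM in replicates 1 to 4. The Y-linked Eif2s3y ran the other way, at 0.0874, 0.133, 46.7 and 62.7 TPM. Replicates 1 and 2 thus had a female pattern and replicates 3 and 4 a male one, so more than 1 animal contributed in spite of the shared donor identifier.

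The coding sequences were searched for the pattern of the switch motif. Codon runs for the switch motif (a threonine codon, any codon, a tyrosine codon, any 2 codons, then valine or isoleucine) were searched in frame in the longest coding sequence of each gene in GENCODE M21. Slamf1, Slamf6, Ly9 and Cd84 held 2 runs each and Slamf7 held 1, all with their tyrosine codon between 80.6% and 97.7% of the way along the coding sequence. Of all 21778 genes searched, 7.88% held 1 or more runs and 0.602% held 2 or more. These 9 runs are shown, on mm10 and 5′ to 3′ along the coding strand, because they match the motif and lie near the end of the coding sequence, and capitals mark the tyrosine codon.
Slamf1 exon 5, chr1:171792339-171792356, plus strand: actattTATgcccaagta
Slamf1 exon 7, chr1:171799588-171799605, plus strand: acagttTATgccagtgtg
Slamf6 exon 6, chr1:171939437-171939454, plus strand: actgtgTATgcacaagtc
Slamf6 exon 7, chr1:171941664-171941681, plus strand: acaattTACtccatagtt
Slamf7 exon 6, chr1:171636327-171636344, minus strand: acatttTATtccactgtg
Ly9 exon 8, chr1:171593912-171593929, minus strand: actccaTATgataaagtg
Ly9 exon 9, chr1:171593438-171593455, minus strand: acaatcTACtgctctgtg
Cd84 exon 5, chr1:171884605-171884622, plus strand: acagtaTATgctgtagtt
Cd84 exon 6, chr1:171885601-171885618, plus strand: accattTATtcctcagtg

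Cd2 and Sh2d1a held no such run, and Cd48 held 1 at 44.6% of its coding sequence. CD48 has no tail, being held on the membrane by a glycolipid anchor, so that run lies outside any tail. A match is a description of letters and does not show that SAP binds there. Slamf7 is known to signal through the related adaptor EAT-2 rather than SAP. In the annotation 2 of 5 coding transcripts of Slamf7 lacked the run, as did 1 of 4 of Cd84, and 1 of 3 of Slamf6 held 1 run instead of 2. Counts per gene do not separate such isoforms.

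The 8 genes spanned a wide range of levels, from Cd2 at 926 ± 37.7 TPM to Slamf7 at 0.469 ± 0.280 TPM (SD, n = 4), a ratio of 1972. TPM is the count per base of gene length scaled to the same sum in each library. In all 4 libraries 7 of 8 members reached 1 TPM, against 48.9% of protein-coding genes, and Slamf7 was the exception. The median of their means was 16.1 TPM, against 1.04 TPM over all 21764 protein-coding genes. All 28 pairs of members kept 1 direction in 4 of 4 libraries. For each pair the exact two-sided sign-flip test gave p = 0.125, the smallest that 4 libraries allow, and 0.125 after Benjamini-Hochberg adjustment over the 28 pairs. No pair could therefore pass a threshold of 0.05.

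**Figure D1:**
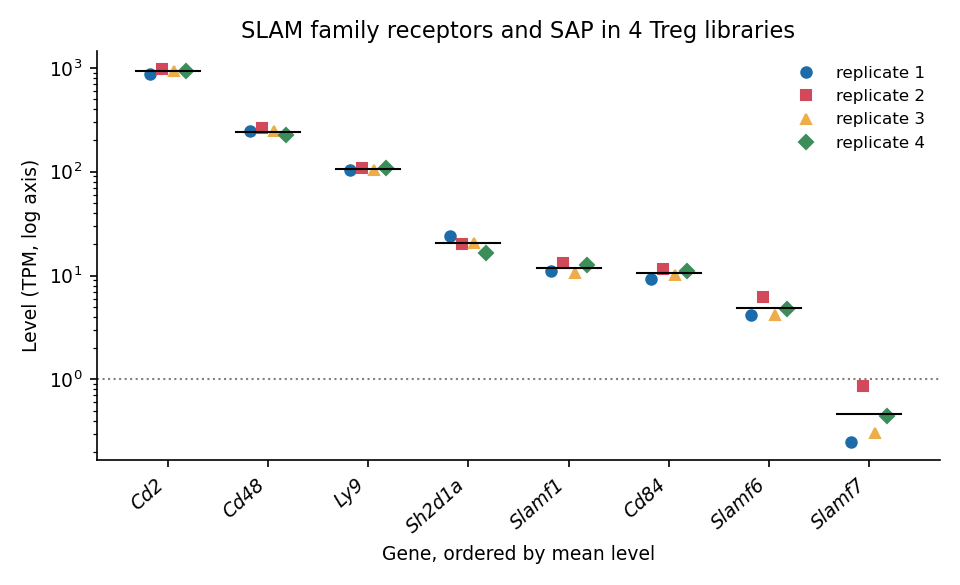
Level of each gene in TPM on a log axis, with 1 point per library and a line at the mean of 4 libraries; the dotted line marks 1 TPM. Cd2, Cd48 and Ly9 lie above 100 TPM and Slamf7 below 1 TPM in every library.

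Cd2 and Cd48 are a receptor and its ligand in the mouse: CD2 is the adhesion and costimulatory receptor of T cells, and CD48 is the protein it binds on neighbouring cells. Cd2 (ENSMUSG00000027863, mm10 chromosome 3, 101275899 to 101287939) was at 877, 968, 932 and 926 TPM in replicates 1 to 4. Replicate 1 was lowest and replicate 2 highest, by a ratio of 1.10, and the gene ranked 107 among protein-coding genes by mean level. Cd48 (chromosome 1, 171682009 to 171705258) was at 244, 262, 245 and 225 TPM and ranked 718. Cd2 exceeded Cd48 by 1.92 ± 0.08 on the log2 scale, and the values of the 2 genes did not overlap. Both were measured precisely, with at least 24314 counts on Cd2 and 4039 counts on Cd48 in every library.

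Ly9, whose product binds itself on other cells, came next in the order and had the smallest spread of the 8 genes. Ly9 (chromosome 1, 171588624 to 171607410) was at 103, 108, 104 and 109 TPM in replicates 1 to 4, a coefficient of variation of 2.67%. It was 1.20 ± 0.10 below Cd48 on the log2 scale. This order rests on gene length: without length normalization Cd48 was at 85.3 ± 4.92 CPM and Ly9 at 103 ± 2.19 CPM (SD, n = 4), and the difference of Cd48 minus Ly9 was -0.27.

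The other receptors that carry the motif were lower. Slamf1, the self-binding receptor that gave the family its name and is also used to mark blood stem cells (chromosome 1, 171767127 to 171801184), was at 11.0, 13.3, 10.5 and 12.7 TPM. Cd84, a self-binding receptor that is known for prolonged contacts of T and B cells (chromosome 1, 171839697 to 171890718), was at 9.21, 11.6, 10.1 and 11.0 TPM. The ranges of these 2 genes overlapped. Slamf1 was higher in 4 of 4 libraries, by 0.18 ± 0.09 on the log2 scale with the merged exon length, but in 3 of 4 with the coding length, by 0.09. With the merged exon length it was the smallest difference between any 2 neighbours in the order. Slamf6, which acts in natural killer T and follicular helper cells (chromosome 1, 171917515 to 171953170), was at 4.14, 6.16, 4.21 and 4.79 TPM. It lay 1.12 ± 0.15 below Cd84, and its highest value, in replicate 2, was under the lowest value of Cd84.

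Slamf7, known from natural killer cells, plasma cells and activated cytotoxic T cells, was near the limit of what is usually called expressed. Its gene (chromosome 1, 171632403 to 171653035) received 41, 72, 31 and 31 counts in replicates 1 to 4, or 0.251, 0.870, 0.307 and 0.449 TPM. A floor of 3 counts, the limit that a count of 0 allows, was worth 0.0183 to 0.0435 TPM, so Slamf7 was detected in each library. The exact 95% Poisson interval of replicate 2, from 0.681 to 1.10 TPM, lay above those of the other libraries, whose upper limits were 0.340, 0.436 and 0.637 TPM. Such intervals and floors cover counting error only. Without replicate 2 the mean was 0.336 ± 0.102 TPM (SD, n = 3).

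Of the summed TPM of the 5 receptors with the motif, Ly9 made up 79.4% ± 1.67, Slamf1 8.86% ± 0.623, Cd84 7.83% ± 0.461, Slamf6 3.59% ± 0.552 and Slamf7 0.345% ± 0.192 (SD, n = 4). The sum itself was 134 ± 6.08 TPM. Ly9 kept the largest share under every length used, but its share was 71.7% with the longest coding transcript as length and 48.7% with the coding length.

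Sh2d1a, the SAP gene on chromosome X (42502453 to 42529330), was at 24.1, 20.3, 20.5 and 16.7 TPM in replicates 1 to 4. Replicate 1 was highest and replicate 4 lowest, with the other two close together. It lay between Ly9 and Slamf1, 2.38 ± 0.25 below Ly9 and 0.77 ± 0.34 above Slamf1 on the log2 scale. Its values did not overlap with those of either gene. The libraries with high Xist, replicates 1 and 2, had 24.1 and 20.3 TPM of Sh2d1a, and those with low Xist, replicates 3 and 4, had 20.5 and 16.7 TPM, so the values overlapped. The part of X-linked dosage in this was not tested.

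The level of Sh2d1a depends on the length it is divided by more than that of any other member. The merged exons of the deposited annotation span 5505 bases for this gene, 4.50 times its longest coding transcript of 1223 bases, and 26.6% of them lie opposite exons of Tenm1. Tenm1 had at most 3 counts in any library, and counting used strand. With the longest coding transcript as length Sh2d1a was at 67.0 ± 10.03 TPM, and with the coding length at 101 ± 15.4 TPM (SD, n = 4), above Ly9 at 60.9 ± 1.28 TPM. Slamf1 was at 19.8 ± 2.25 and 24.2 ± 2.56 TPM under these lengths, Cd84 at 14.0 ± 1.43 and 22.7 ± 2.17 TPM, and Slamf6 at 6.66 ± 1.31 and 16.9 ± 3.18 TPM. Cd2, Cd48, Slamf1, Cd84, Slamf6 and Slamf7 kept their order among themselves under all 3 lengths. Fragments were counted on all merged exons, 5505 bases for Sh2d1a, against a coding length of 378 bases. Values with the coding length therefore show the effect of the divisor and do not stand for transcript levels.

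**Figure D2:**
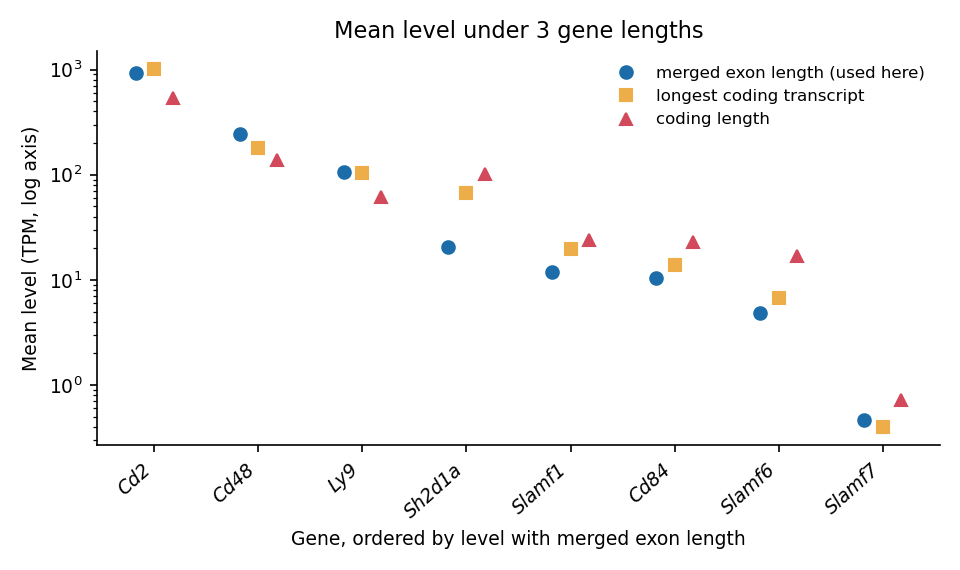
Mean level of 4 libraries in TPM, on a log axis, with the merged exon length, the longest coding transcript or the coding length as divisor. Sh2d1a moves the most, between 20.4 and 101 TPM, and passes Ly9 only with the coding length.

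All members but Cd2 and Sh2d1a lie in 1 block of chromosome 1. The block from Ly9 to Slamf6 (mm10, 171588624 to 171953170) spans 365 kb and holds or touches 19 annotated genes, of which 6 are members and 13 are not. Along it the members run Ly9, Slamf7, Cd48, Slamf1, Cd84 and Slamf6, with 4 on the plus strand and 2, Ly9 and Slamf7, on the minus strand. Level did not follow position: Slamf7 at 0.469 TPM lies between Ly9 at 106 TPM and Cd48 at 244 TPM. None of the 13 other genes reached 1 TPM in all 4 libraries and 6 of them had 0 counts throughout. The highest by mean was the pseudogene Tma7-ps at 1.11 ± 0.848 TPM (SD, n = 4), which rests on 1 to 7 counts per library.

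**Figure D3:**
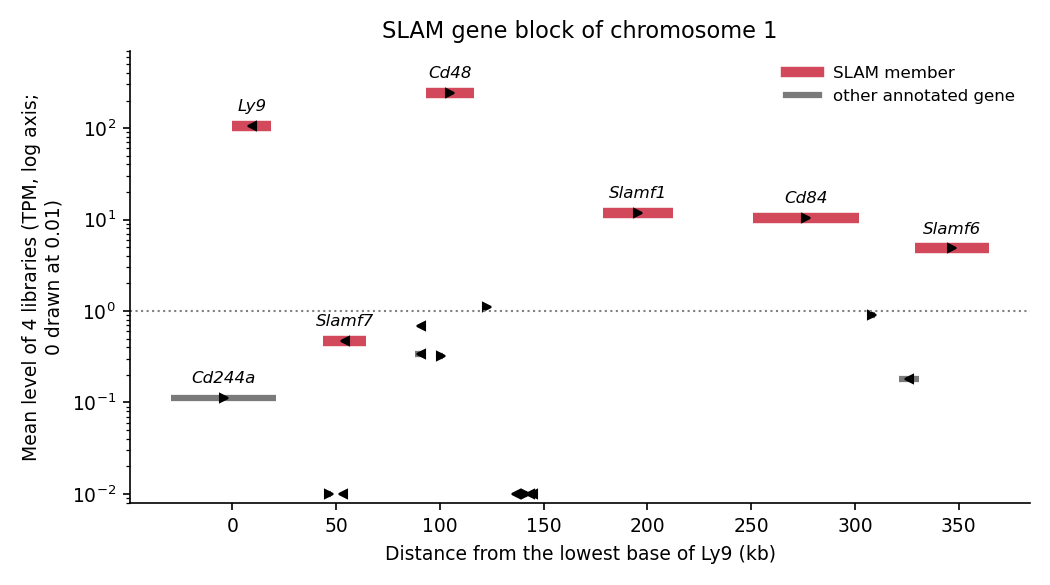
Genes of the block by distance from the lowest base of Ly9 in kb and by mean level of 4 libraries in TPM on a log axis, with genes at 0 drawn at 0.01; arrowheads give the strand. Of the 6 members, 5 lie above 4 TPM, and no other gene exceeds 1.11 TPM.

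The remaining family genes divide in the same cells. Cd244a, which encodes the natural killer cell receptor 2B4 for CD48, overlaps the span of Ly9 on the opposite strand without sharing an exon base. It had 24, 8, 12 and 8 counts, or 0.138, 0.0908, 0.112 and 0.109 TPM, against 5437 to 12185 counts on Ly9. Slamf8, best known from myeloid cells, had 0 counts in all libraries, where 3 counts would be 0.0273 to 0.0646 TPM. Slamf9, also described mainly in myeloid cells, was at 6.75, 7.46, 7.60 and 10.4 TPM. Its mean of 8.04 TPM lay between those of Slamf6 and Cd84, and its highest value lay within the 9.21 to 11.6 TPM of Cd84. This place rests on gene length. Without length normalization Slamf9 was at 3.10 ± 0.607 CPM, below Slamf6 at 15.3 ± 2.78 CPM (SD, n = 4). Slamf9 held no switch motif run, while Cd244a held 4 and Slamf8 held 1 at 41.7% of its coding sequence. The SAP-related adaptor genes Sh2d1b1 and Sh2d1b2 (EAT-2 and ERT, natural killer cell adaptors) had 0 counts in all 4 libraries, which left Sh2d1a as the 1 adaptor of this family that was detected.

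SLAM genes are also active in B cells, natural killer cells, myeloid cells and platelets, so markers of those cells were read in the same libraries. The summed level of 6 B cell markers was 2.95 to 4.50 TPM, led by Cd79b. Natural killer markers summed to 3.12 to 3.89 TPM, led by Eomes, with Ncr1 and Klra4 at 0 in all. Macrophage and monocyte markers summed to 7.16 to 8.92 TPM, led by Cd68, with Lyz2 at 0. Among megakaryocyte and platelet markers, Gp9, Pf4, Ppbp, Gp1ba and Treml1 were at 0 and only Itga2b was seen, at 1.01 ± 0.207 TPM (SD, n = 4). Plasma cell markers summed to 6.75 to 7.93 TPM, led by Sdc1, with Tnfrsf17 at 0. Dendritic cell markers summed to 4.20 to 5.22 TPM, led by Zbtb46, with Clec9a and Siglech at 0, and granulocyte and mast cell markers to 4.68 to 6.16 TPM, led by Kit, with Ly6g, S100a8 and S100a9 at 0. The 2 CD8 markers summed to 8.70 to 13.4 TPM, led by Cd8b1, and Zbtb16 with Trdc to 0.976 to 1.74 TPM. The part of other cells in the low levels of Slamf7, Cd244a and Slamf9 was not tested. In bulk RNA, few cells with much transcript and many cells with little cannot be told apart.

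Genes that act with SAP were read beside it. All 12 SAP signalling partners reached 1 TPM in every library, against 48.9% of protein-coding genes. The list median was 71.6 TPM, against 1.04 TPM over all protein-coding genes. Fyn, the kinase that SAP brings to the receptors, was at 178 ± 5.89 TPM (SD, n = 4). It exceeded Sh2d1a in 4 of 4 libraries by 3.13 ± 0.25 on the log2 scale. The size of that difference rests on the merged exon length. Without length normalization Fyn was at 228 ± 6.13 CPM and Sh2d1a at 33.0 ± 5.01 CPM (SD, n = 4). Nfkb1 was the highest of the list at 342 ± 18.5 TPM. The exchange factor gene Vav1 came next at 215 ± 14.0 TPM, ahead of Fyn, and after Fyn came Malt1, which signals from antigen receptors to NF-kappaB, at 153 ± 9.81 TPM. Arhgef7, whose product binds SAP, was the lowest of the list and below Sh2d1a on average, at 15.6 to 16.6 TPM over the 4 libraries. This order rests on gene length. Without length normalization Arhgef7 was at 74.2 ± 2.09 CPM, above Sh2d1a at 33.0 ± 5.01 CPM (SD, n = 4), and was not the lowest of the list.

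Next came the phosphatases and kinase that act at the same tyrosine motifs when SAP does not hold them, or that restrain its kinases. All 4 reached 1 TPM in every library, against 48.9% of protein-coding genes, with a list median of 282 TPM. Ptpn6 (SHP-1) was at 509 ± 21.2 TPM, Csk at 438 ± 23.2 TPM, Ptpn11 (SHP-2) at 126 ± 6.41 TPM and Inpp5d (SHIP-1) at 106 ± 1.77 TPM (SD, n = 4). Ptpn6 exceeded Sh2d1a by 4.65 ± 0.25 and Inpp5d did so by 2.38 ± 0.23 on the log2 scale, in 4 of 4 libraries each. These differences rest on the merged exon length of each gene.

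The tail of CD2 has no switch motif and signals through proline-rich stretches. All 6 tail partners reached 1 TPM in every library, against 48.9% of protein-coding genes. Lck, the T cell kinase, was at 827 ± 42.1 TPM, Cd2bp2 at 126 ± 3.29 TPM and the adaptors Cd2ap at 58.3 ± 7.16, Pstpip1 at 53.0 ± 6.64 and Sh3kbp1 at 49.9 ± 3.51 TPM (SD, n = 4). The list median was 92.2 TPM.

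Of 9 genes typical of the cells that need SAP elsewhere, 5 reached 1 TPM in all libraries, a share near the 48.9% of protein-coding genes that did. The median of the 9 was 5.94 TPM. The 5 were Pdcd1 at 420 ± 41.2, Icos at 103 ± 18.3, Maf at 40.0 ± 7.56, Cxcr5 at 28.6 ± 5.97 and Bcl6 at 5.94 ± 1.09 TPM (SD, n = 4). Some of these genes are also known from other activated T cells, and the part of activation in their levels was not tested. Zbtb16, the factor of natural killer T cells, was at 0.0988 ± 0.0625 TPM, on 13, 14, 18 and 2 counts. The helper cytokine genes Il21 and Il4 and the follicular factor gene Ascl2 each had 0 counts in at least 2 libraries.

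The spread of the members between libraries was set against that of all genes. In a quasi-likelihood dispersion test over 13625 genes (edgeR), all 8 members were tested and 0 varied beyond genes of like abundance at an adjusted p under 0.05, against 0.00734% of genes tested. At an unadjusted p under 0.05 the count was also 0 of 8, against 4.70% of genes tested. DESeq2 marked 0 of 8 as dispersion outliers, against 43 of 13625 genes. The coefficient of variation was 2.67% for Ly9, 4.07% for Cd2, 6.16% for Cd48, 10.1% for Cd84, 11.3% for Slamf1, 14.9% for Sh2d1a, 19.4% for Slamf6 and 59.7% for Slamf7. The median over 10640 protein-coding genes at 1 TPM in all libraries was 7.82%. Counting error alone would give 3.05% or less for each member but Slamf7. The highest dispersion among members relative to the trend was that of Sh2d1a, at 3.88 times (unadjusted p = 0.0682, adjusted p = 0.965 by edgeR). Slamf7 followed at 3.58 times and Slamf6 at 2.83 times. The regulatory T cell marker Ikzf2 was at 7.63 times and also had an adjusted p of 0.965 by edgeR. With 4 libraries, 0 calls therefore do not show that the members were stable.

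Replicate 2 had the highest level of 6 of the 8 members, namely Cd2, Cd48, Slamf1, Cd84, Slamf6 and Slamf7, against 43.8% of the 10640 protein-coding genes. Relative to the mean of the other 3 libraries it was higher by 1.18 for Slamf7, 0.49 for Slamf6, 0.22 for Slamf1, 0.20 for Cd84, 0.14 for Cd48 and 0.09 for Cd2 on the log2 scale. The median over those 10640 genes was 0.05. For Ly9 the difference was 0.03 and for Sh2d1a 0.01. The 6 regulatory T cell markers went both ways in the same library. Il2ra (2491 TPM, against 1948 to 2210 TPM in the other libraries), Ctla4 (676 TPM, against 450 to 536 TPM) and Ikzf2 (21.5 TPM, against 13.6 to 16.5 TPM) were highest. Foxp3 (408 TPM, against 450 to 471 TPM) and Tnfrsf18 (680 TPM, against 773 to 959 TPM) were lowest. Ikzf4 was at 125 TPM, within the 118 to 129 TPM of the other libraries. The part of whatever set this library apart was not tested.

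**Figure D4:**
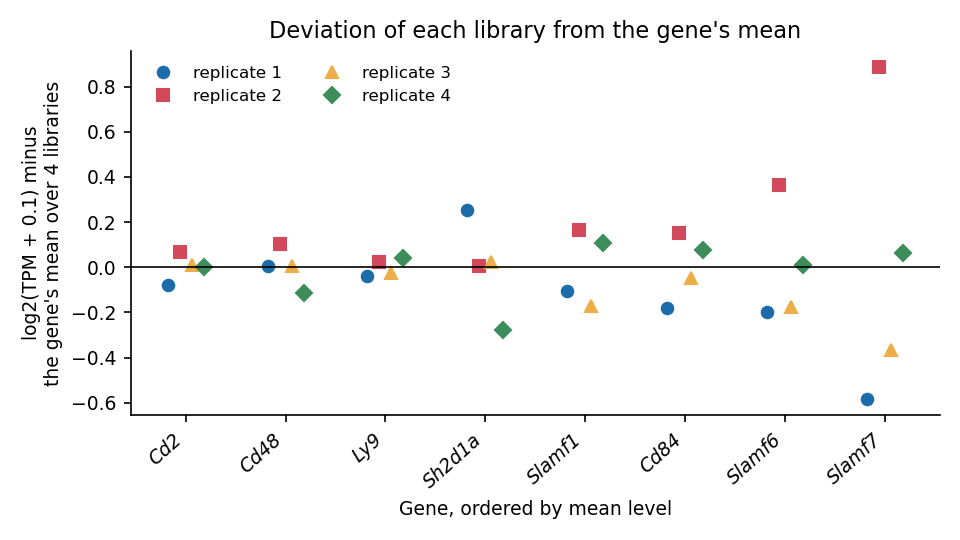
Deviation of each library from the gene's mean over 4 libraries, in log2(TPM + 0.1), for each member ordered by level. Replicate 2 is highest for 6 of 8 genes, and for Sh2d1a replicate 1 is highest and replicate 4 lowest.

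The protein-coding genes nearest in level to the 7 members at 1 TPM or more over the 4 libraries, by the root mean square difference of log2(TPM + 0.1), were Calr for Cd2 (0.04), Stt3b for Cd48 (0.05), Crlf3 for Ly9 (0.02), Aoc2 for Sh2d1a (0.10), Hace1 for Slamf1 (0.03), Dapk1 for Cd84 (0.04) and Rassf4 for Slamf6 (0.07). With 4 libraries this measure mostly reflects a like level: 155 genes lay within 0.1 of Ly9 and 0 within 0.1 of Sh2d1a.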

How the data were processed

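Each library has 1 deposited table of unnormalized counts of fragments on genes. Per the file headers, the authors made these counts with featureCounts 1.4.6-p4 on GENCODE M13, with paired fragments, both ends mapped, strand setting 2 and exons grouped by gene, and the deposited gene length is that of the merged exons. Per the labels the build is mm10. The aligner version is not given in the sources used here. Gene names and types came from GENCODE M21 on the same build, by identifier without version (50376 of 50600 matched).

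TPM was computed from counts and merged exon length. Pairs of members were compared within each library as log2(TPM + 0.1) by sign flips over the libraries (exact, two-sided). Spread between libraries was tested over all genes with edgeR 4.0.16 (TMM, filterByExpr, intercept-only quasi-likelihood fit, robust prior with 6.54 degrees of freedom, Benjamini-Hochberg). The same test was also run on simulated counts, with mean levels and library sizes taken from these libraries. Those counts had the same dispersion for every gene, so they do not show what spread of a member would be called. DESeq2 1.42.0 was an alternative. R 4.3.3 ran these fits. Plots came from matplotlib 3.10.9 and the other values from scipy 1.17.1, pandas 2.3.3 and numpy 2.4.6, under Python 3.11.15.

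Members and lists were chosen with earlier results of these data known. Named genes are the members, the other family and adaptor genes, the highest, the lowest and up to 4 further members of each pathway list by level, the highest marker and markers at 0 of each marker list, and the nearest gene in level to each member at 1 TPM or more in all libraries, which leaves out Slamf7. Xist, Tma7-ps, Tenm1, Zbtb16, Trdc, Il4, Ascl2, Nectin2, Dok2 and the genes given for replicate 2 were named after their values were seen, as were the flanking genes in the closing section. Some listed genes are counted in their lists but not reported here by name. Protein sequences were not used here, so codon runs in coding sequences were searched instead. The longest coding transcript and the coding length as divisors, and the alternatives for the share of Ly9, were added after seeing the data.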

Additional observations from a re-analysis of the deposited data

Results flagged for a closer look

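Of 81 listed, marker or nearest genes checked for a library far from the other 3, 4 had one and 0 of these were members of the SLAM set; chance flags about 1 in 20. Replicate 2 was the library far from the others each time. Dok2, an adaptor gene, was lowest there at 62.6 TPM, against 81.1 to 82.8 TPM in the other libraries. Pdcd1 was lowest at 358.8 TPM, against 437.5 to 446.4 TPM. Sh3kbp1 was highest at 55.1 TPM, against 47.5 to 48.8 TPM, and Nectin2 highest at 9.30 TPM, against 8.32 to 8.42 TPM.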

How the results depend on the processing

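Under every normalization, threshold, length and left-out library tried, 7 members reached the detection level in all libraries, except that 6 did at 5 TPM. All 28 member pairs kept 1 direction across the libraries, except that 27 did with the coding length, where Slamf1 exceeded Cd84 in 3 of 4 libraries. In 2 pairs the order turned: Cd48 minus Ly9 was -0.27 on the log2 scale in CPM, and Ly9 minus Sh2d1a was -0.72 with the coding length. The share of Ly9 among receptors with the switch motif was 64.6% in CPM, 71.7% with the longest coding transcript, 48.7% with the coding length and 78.9% to 80.1% with 1 library left out. Members that varied between libraries stayed at 0 in all alternatives. At an unadjusted p under 0.05 (edgeR), 1 of 8 members passed without the filter, beside 1465 of 23106 genes tested. Without replicate 2 it was 1 of 8, beside 784 of 14003 genes. Without replicate 3 it was 2 of 8, beside 636 of 13602 genes. Over all genes 1 gene varied, which was Xist (adjusted p = 1.84e-05 by edgeR). There were 98 without the filter on low counts, 43 as DESeq2 dispersion outliers, and 1 to 18 with 1 library left out. The 18 came without replicate 2, and 2 came without replicate 1. The causes were not tested, apart from the division by length. Depth limits Slamf7, at 31 to 72 counts, and Cd244a, at 8 to 24. No paired analysis was possible because there is 1 group.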

Other observations

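Other adhesion genes of T cells were read beside Cd2 and Cd48. Of 10 listed, 9 reached 1 TPM in all libraries, against 48.9% of protein-coding genes, with a list median of 52.8 TPM. The integrin genes Itgb2 at 831 ± 39.8 TPM and Itgal at 457 ± 31.8 TPM (SD, n = 4), which form LFA-1, were the highest. Their ligand gene Icam1 was at 66.5 ± 3.13 TPM. Cd96 was at 91.2 ± 8.75 and Cd226 at 88.5 ± 10.9 TPM, receptors for ligands of the nectin family, and Crtam was lowest at 0.162 ± 0.0927 TPM.

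The nearest annotated protein-coding genes that flank the SLAM block of chromosome 1 had mixed levels. On the side of Ly9, Itln1 had 0 counts and Alyref2 was at 5.65 ± 0.412 TPM (SD, n = 4). On the side of Slamf6, Vangl2 was at 1.22 ± 0.405 and Nhlh1 at 0.0736 ± 0.0627 TPM, and beyond them Ncstn was at 103 ± 3.97 and Copa at 152 ± 1.29 TPM.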
